A study of Solanum lycopersicum with 12 samples.

Results

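Tomato plants whose seeds had received spores of T34, a wild-type strain of Trichoderma harzianum, were compared with plants from untreated seeds in 6 of the 12 arrays of the series (3 with T34 and 3 controls). The comparison covers the 10038 tomato probe sets of the Affymetrix Tomato Genome Array, taken by their identifiers out of 10209 features, with no choice by signal or by change. Total RNA came from the aerial parts of 3-week-old plants raised in a greenhouse in autoclaved loamy field soil, and the labels also give the tissue as leaves. Each array carried RNA of 5 pooled plants, so that the spread between the arrays of a group is a spread between pools, and the control seeds are described as untreated, with no mention of a mock coating. According to the sample labels the coating suspension held 20000000 spores per ml, whereas the methods of the study give a denser one. The other 6 arrays of the series, from plants treated with the T34 transformants amdS6 and amdS122, which carry the acetamidase gene amdS of Aspergillus nidulans, served to estimate the spread and, at the end, as values beside those of T34.

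Trichoderma harzianum is a soil fungus that colonizes the outer layers of roots and is used as a seed and soil treatment. Root colonization by such fungi can change defense readiness in leaves far from the fungus, a state known as induced systemic resistance, in which jasmonate and ethylene are the classical signals and salicylic acid is tied to pathogenesis-related (PR) proteins. In leaves, phosphoenolpyruvate carboxylase (PEPC) supplies carbon skeletons for the assimilation of ammonium, and it is activated through phosphorylation by PEPC kinases (PPCK).

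The response to T34 was broad in number and small in size. At an adjusted p under 0.1, 993 probe sets (9.89% of those tested) differed between T34 and control plants, 574 of them higher (5.72%) and 419 lower (4.17%) with T34. Of the 993, 739 (74.4%) had changed by less than 1.25-fold, 202 (20.3%) by 1.25-fold to 1.5-fold and 43 (4.33%) by 1.5-fold to 2-fold. In the last of these classes 32 rose and 11 fell. Only 9 probe sets (0.0897%) reached 2-fold, 6 higher (0.0598%) and 3 lower (0.0299%). The smallest fold change that passed was 1.08, and the median absolute log2 change was 0.24 among passing probe sets and 0.07 among all, beside a median standard error of 0.063. The values of the 3 T34 arrays and of the 3 control arrays did not overlap in 971 of the 993, against 24.7% of all probe sets (13.2% higher and 11.5% lower with T34). Ordered by signal into 4 classes of equal size, 3.94% of the dimmest class passed, then 11.5%, 14.1% and, in the brightest, 10%. Among the 909 probe sets with a gene symbol 142 passed (15.6%), 89 higher and 53 lower. The other 851 passing probe sets were among the 9129 without a symbol, which make up most of the array.

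**Figure D1:**
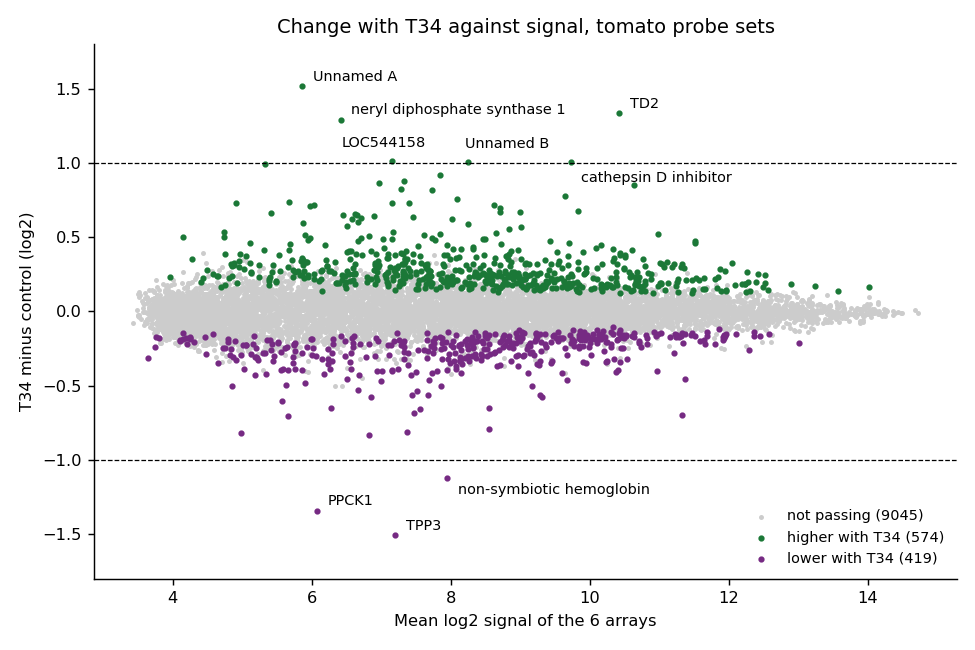
Log2 difference between T34 and control plants (vertical axis) against the mean log2 signal of the 6 arrays (horizontal axis), with 1 point per tomato probe set. Dashed lines mark 2-fold, and the 9 labelled probe sets lie beyond them, whereas most of the 574 green (higher) and 419 purple (lower) points lie close to 0.

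The number of probe sets that passed changed with the arrays fitted and with an RNA quality measure added to the fit. Leaving out T34 replicate 1 left 579 passing and leaving out T34 replicate 2 left 639. The 6 arrays fitted alone gave 570, of which 542 were among the 993. The 3' minus 5' log2 signal of actin, ef1a and gapdh, which is larger where transcripts are shorter at their 5' ends, averaged 3.44, 3.36 and 3.30 on the control arrays and 3.21, 3.28 and 3.20 on the T34 arrays. All T34 values lay below all control values (difference of -0.14, two-sided p = 0.1 in an exact permutation test, which cannot go lower with 3 arrays on each side). With this measure as a covariate 533 probe sets passed, 463 of them among the 993. Scaled on the 9 hybridisation spike probe sets, which varied from 10.30 to 10.75 among control arrays, 126 passed, 107 higher and 19 lower (84.9% higher, against 57.8% in the fit without that scaling). A fit with fewer arrays or an added term also has fewer degrees of freedom. Because the 3' minus 5' measure separates T34 from control arrays, its fit cannot tell RNA quality from the treatment. The part of RNA quality in the small shifts was not tested. Of 101 passing probe sets followed one by one, 28 lost their call with the 3' minus 5' measure in the fit and 25 in the 6 arrays alone, as given below for single genes.

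The largest rises were those of an unnamed transcript, of a threonine deaminase and of a neryl diphosphate synthase. The unnamed transcript had log2 signals of 5.16, 5.11 and 5.03 on the control arrays and 6.64, 6.66 and 6.54 on the T34 arrays, a rise of 1.51 (95% interval 1.39 to 1.64). The arrays of each group lay close together (SD 0.064 in control plants and 0.062 with T34), far closer than the groups to each other. TD2, a threonine deaminase known from wounded tomato leaves, had 9.78, 9.74 and 9.74 in control plants and 11.16, 11.20 and 10.91 with T34 (rise of 1.33, interval 1.13 to 1.54). The lowest T34 array of TD2 was still above the highest control array by more than 1 on the log2 scale. Neryl diphosphate synthase 1, a glandular trichome enzyme whose product is used for monoterpenes, had 5.63, 6.00 and 5.67 against 6.97, 7.23 and 6.97 (rise of 1.29, interval 1.00 to 1.57). Its second array was the highest in both groups.

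Among the other rises past 2-fold, the values lay close to the limit. A cathepsin D inhibitor, a protein that blocks proteases, had 9.15, 9.32 and 9.19 in control plants and 10.23, 10.28 and 10.16 with T34, a rise of 1.00 (interval 0.84 to 1.17). LOC544158, a gene whose function is not given in the annotation, had 6.42, 6.71 and 6.81 against 7.54, 7.88 and 7.56 (rise of 1.01, interval 0.77 to 1.25). Its arrays were spread with an SD of 0.20 in control plants and 0.19 with T34, and no control array reached the T34 arrays. A second unnamed transcript had 7.69, 7.79 and 7.76 against 8.78, 8.73 and 8.74 (rise of 1.00, interval 0.85 to 1.16). Just under the limit stood LOC543955, also without a given function, with 4.93, 4.70 and 4.87 in control plants and 5.99, 5.82 and 5.66 with T34 (rise of 0.99, interval 0.77 to 1.21). A second probe set of LOC543955 had a log2 change of 0.08 and did not pass. Which probe sets count as 2-fold is therefore a matter of single arrays: without control replicate 1 or T34 replicate 2, 4 rises were past the limit, and without T34 replicate 3 there were 7.

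The 3 falls past 2-fold were those of TPP3, PPCK1 and a non-symbiotic hemoglobin. TPP3, the probe set that the study describes as a defensin, had log2 signals of 7.85, 7.90 and 8.10 in control plants and 6.58, 6.47 and 6.28 with T34, and fell by 1.51 (adjusted p = 1e-06). The probe set called PPCK1, after the array annotation, which makes it a PEPC kinase, is named phosphoenolpyruvate carboxykinase, a different enzyme, in the study's tables, and which of the names holds was not tested. PPCK1 had 6.72, 6.75 and 6.76 against 5.56, 5.43 and 5.22, and fell by 1.34. The control arrays of PPCK1 were nearly equal (SD 0.021), whereas those of T34 were not (SD 0.17). The hemoglobin, of a class that binds and removes nitric oxide, had 8.45, 8.53 and 8.53 against 7.43, 7.34 and 7.37 (change of -1.12, interval -1.21 to -1.03). All 3 falls kept both limits in each alternative tried.

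**Figure D2:**
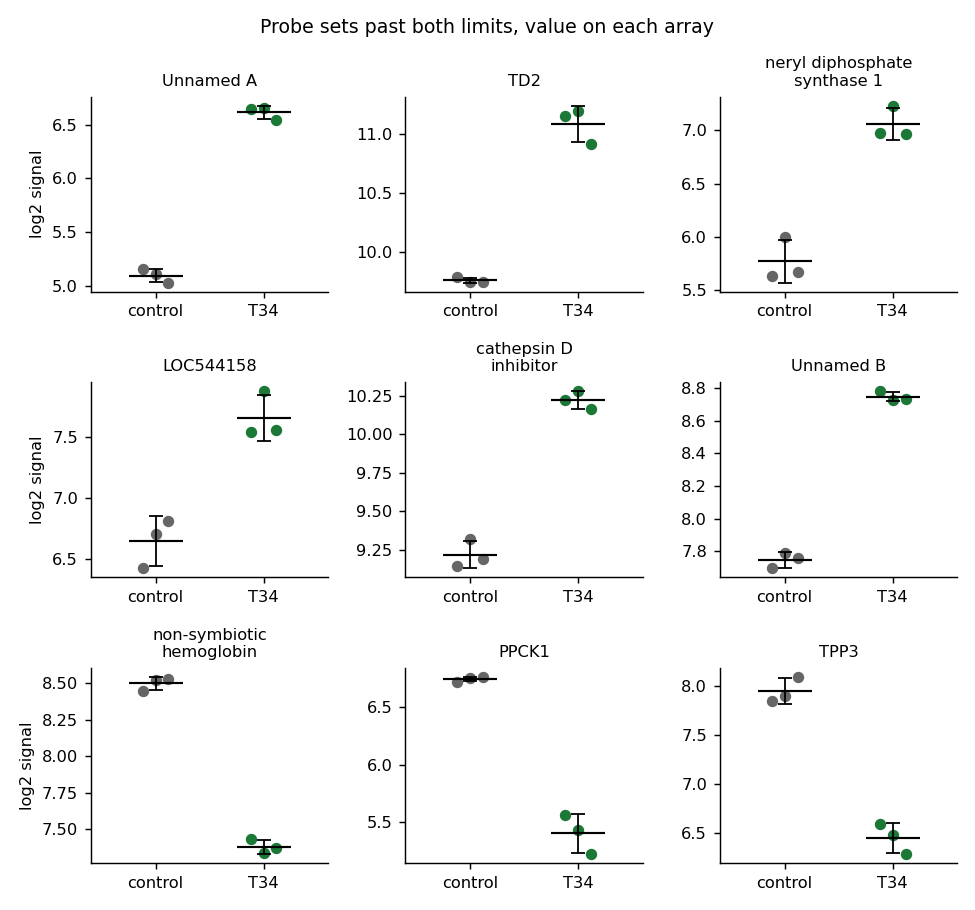
Log2 signal (vertical axes, each with its own range) of the 9 probe sets past both limits on the 3 control arrays (grey) and the 3 T34 arrays (green). Horizontal lines give the means and bars the SD (n = 3 arrays per group); in none of the 9 do the groups overlap.

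Both PEPC probe sets, PPCK2 and nitrate reductase were lower with T34, whereas ME2 and gdh1 were higher. Of 20 probe sets on a list that links carbon and nitrogen metabolism 2 were higher, 9 lower and 9 did not pass (55% passing, against 9.89% of all probe sets and 15.6% of those with a symbol), with a median log2 change of -0.09 (-0.003 over all probe sets tested). The hemoglobin, PPCK1, both PEPC probe sets and the nitrate reductase probe set of this list come from tables that the study made on these arrays, so the direction of the list is not independent evidence. The list as first written, before members were corrected, gave 2 higher and 5 lower, and spike scaling of the corrected list gave 4 lower and none higher. PEPC probe set 1 had 8.90, 8.96 and 8.96 in control plants and 8.17, 8.16 and 8.13 with T34 (change of -0.79). PEPC probe set 2 had 7.14, 7.26 and 7.32 against 6.37, 6.39 and 6.46 (-0.83). The intervals of the 2 falls, -0.91 to -0.67 and -0.99 to -0.68, overlap almost entirely. PPCK2, a PEPC kinase by its annotated symbol, had 6.18, 6.38 and 6.59 against 6.14, 5.92 and 5.81 (-0.42, interval -0.65 to -0.20). Its lowest control array lay only just above its highest T34 array. The PPCK2 call was lost when the 6 arrays were fitted alone.

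On the nitrogen side of the list the shifts were smaller. Nitrate reductase, which reduces nitrate to nitrite, had 10.67, 10.62 and 10.51 in control plants and 10.28, 10.33 and 10.18 with T34 (-0.34, adjusted p = 0.00328). Of the 2 probe sets of gts1, a glutamine synthetase gene, 1 fell (-0.35, adjusted p = 0.0603) and the other had -0.12 (adjusted p = 0.124), whereas GS2, the plastid glutamine synthetase, had -0.02. The ammonium transporter AMT1-2 had -0.04 (adjusted p = 0.796). Upward went the malic enzyme ME2, with 10.81, 10.85 and 10.88 against 11.13, 11.17 and 11.23 (0.33, adjusted p = 0.00362), and gdh1, a glutamate dehydrogenase (0.18, adjusted p = 0.0388). The other malic enzyme, ME1, had -0.02, and of the malate dehydrogenases only cytosolic cMDH passed (-0.23, adjusted p = 0.0576), while mdh, chMDH, gMDH and both probe sets of mMDH1 lay between -0.05 and 0.04. The calls of gts1, cMDH, gdh1 and GLB2, a second hemoglobin (-0.14), were each lost in at least 3 of the 6 fits that left out 1 array: gts1 without control replicate 1 and T34 replicates 2 and 3, cMDH without every array but T34 replicate 1, gdh1 without control replicate 1 and T34 replicates 1 and 3, and GLB2 without every array but control replicate 1.

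Probe sets on a list of jasmonate synthesis and wound defense rose more often than they fell. Of 28 probe sets 8 were higher and 1 lower, with a median log2 change of 0.08. The share passing was 32.1%, against 9.89% of all and 15.6% of those with a symbol. The list as first written gave 7 higher and 1 lower. The cathepsin D inhibitor takes its name from the study's table of T34 changes on these arrays, so its place on the list is not independent evidence. Beside TD2 and the cathepsin D inhibitor, loxC, a chloroplast lipoxygenase of volatile formation, had 6.90, 6.87 and 6.88 in control plants and 7.84, 7.79 and 7.66 with T34 (rise of 0.88, interval 0.74 to 1.02). AOS, allene oxide synthase, an early enzyme of jasmonate synthesis, had 6.35, 6.49 and 6.52 against 6.94, 6.98 and 6.92 (0.50, adjusted p = 0.0148). ARG2, an arginase induced by jasmonate in tomato, rose with 2 of its 3 probe sets (0.48 and 0.41), and the third had -0.15. LAPA1, a wound-induced leucine aminopeptidase, had 8.48, 8.70 and 8.75 against 8.97, 8.95 and 9.17 (0.39, adjusted p = 0.0253), and HPL, hydroperoxide lyase, rose by 0.22. In every probe set of these that rose, the highest control array lay below the lowest T34 array.

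The single fall of the jasmonate list was loxD, the lipoxygenase that feeds jasmonate synthesis (8.01, 8.00 and 8.09 against 7.88, 7.90 and 7.89, log2 change of -0.14). Its adjusted p of 0.0916 did not hold without any 1 of the 6 arrays, nor with the replicate number as a block (adjusted p = 0.114). Between 8 and 10 members of the list were higher when single arrays were left out, 6 with the 3' minus 5' measure in the fit and 7 with spike scaling. LAPA1 and HPL lost their calls with the 3' minus 5' measure, and HPL also in the 6 arrays alone. Outside the list, and chosen after their values were seen, stood ER1, an ethylene-responsive proteinase inhibitor (5.32, 5.21 and 5.39 against 5.85, 5.97 and 6.30), and LOC543954, whose listed synonym is PIIF (0.50, adjusted p = 0.00371), which also rose.

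Of 19 probe sets of PR proteins 6 were higher, 4 lower and 9 did not pass. The share passing was 52.6%, against 9.89% of all probe sets and 15.6% of those with a symbol. The list as first written gave 5 higher and 3 lower, with a median log2 change of 0.066 against 0.123. LOC543878, with the synonym PR5 (a thaumatin-like protein), had 6.65, 6.43 and 6.52 in control plants and 7.22, 7.50 and 7.47 with T34 (rise of 0.86, interval 0.67 to 1.06). NP24-I, an osmotin-like protein of the same family, had 8.16, 8.21 and 8.38 against 8.68, 8.78 and 8.76 (0.49). The chitinases CHI17 and CHI9 rose, CHI17 by 0.42 and CHI9 by 0.32, and so did GluB, a basic β-1,3-glucanase (10.34, 10.43 and 10.44 against 10.83, 10.75 and 10.86). Chitinases and glucanases cut the polymers of fungal cell walls. The protease P69B rose by 0.23, a call that was lost without T34 replicate 1 or 2 and in the 6 arrays alone.

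Against these stood the falls of TPP3 (above), P4, TSI-1 and CHI3. P4, a PR-1 protein of tomato and a marker of salicylic acid signalling, had 9.48, 9.64 and 9.67 in control plants and 8.96, 9.07 and 9.02 with T34 (-0.58, interval -0.72 to -0.44). TSI-1, a stress-induced protein, had 6.50, 6.69 and 6.63 against 5.98, 5.99 and 5.89 (-0.65). CHI3, a chitinase like CHI17 and CHI9, had 9.30, 9.31 and 9.33 against 8.95, 8.86 and 8.89 (-0.42). Leaving out single arrays gave 5 or 6 higher and 4 lower members. TPP3 is known mainly from pistils, and it is also on the list of fruit, flower and seed markers, of which 15 of 18 had a mean signal below the median of the arrays.

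**Figure D3:**
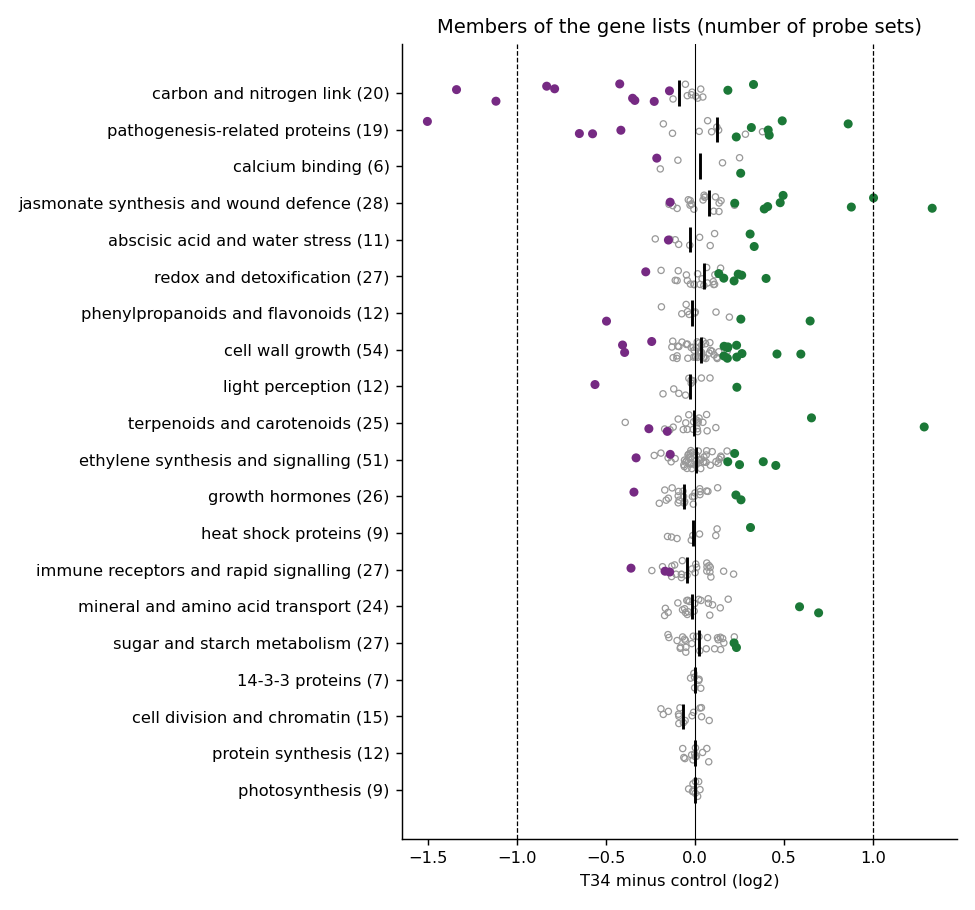
Log2 difference between T34 and control plants (horizontal axis) for each probe set of the 20 process lists, with the number of probe sets in parentheses. Filled points passed (green higher, purple lower), open points did not, thick lines mark the list medians, dashed lines 2-fold, and vertical scatter within a row has no meaning; the lists are ordered by the share that passed, from 0% to 55%.

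Of the genes of ethylene synthesis and signalling few moved, and by little. Of 51 probe sets 5 were higher and 2 lower (13.7%, against 9.89% of all and 15.6% of those with a symbol). ACO4, an ACC oxidase of the last step of ethylene synthesis, rose from 12.27, 12.30 and 12.32 to 12.49, 12.54 and 12.60 (0.25, adjusted p = 0.00295), and ACO6 rose with 1 of 3 probe sets (0.45). ACS3, an ACC synthase, had 0.38 (adjusted p = 0.0936), a call that stood only without T34 replicate 2 among the fits that left out 1 array. The transcription factors EIL4 (0.18) and LOC606712, with the synonym TERF1 (0.22), were higher, and the coactivator ER24 fell from 9.10, 9.01 and 9.00 to 8.75, 8.72 and 8.65 (-0.33, adjusted p = 0.00464). EIL4 lost its call with the 3' minus 5' measure and in the 6 arrays alone, LOC606712 lost its call without control replicate 2 or T34 replicate 2, and ER49 (-0.14) lost it without control replicates 1 or 3 or T34 replicates 1 or 2.

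Of 27 probe sets of immune receptors and early signalling none was higher and 3 were lower. That share of 11.1% is near the 9.89% of all probe sets and below the 15.6% of those with a symbol. The lower ones were LOC543855, with the synonym WRKYIId-2 (-0.36, adjusted p = 0.0288), CITRX, a thioredoxin that interacts with an immune receptor (-0.17), and 1 of 3 probe sets of the kinase MPK3 (-0.14). Without T34 replicate 1 the number of lower members was 0, and the receptor Eix1 had 0.22 (adjusted p = 0.185). Of 6 probe sets on a calcium list 1 was higher and 1, LCA1 (-0.22), lower. The share passing was 33.3%, against 9.89% of all and 15.6% of those with a symbol. The list as first written had 0 higher and 1 lower. The members called calcium-binding protein take their names from the study's tables on these arrays, so their place on the list is not independent evidence. The LCA1 call was lost in the 6 arrays alone and without control replicates 1 or 3 or T34 replicates 1 or 2. Calcium-binding protein 1 had 8.82, 8.88 and 8.83 against 9.11, 9.12 and 9.07 (0.26, adjusted p = 0.0354), a call that was lost without T34 replicate 1 or 2 and with the 3' minus 5' measure.

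Of 25 terpenoid and carotenoid probe sets 2 were higher and 2 lower (16%, close to the 15.6% of probe sets with a symbol). SSTLE1, a sesquiterpene synthase also known as TPS9, had 6.28, 6.26 and 6.34 in control plants and 6.92, 6.95 and 6.97 with T34 (0.66, interval 0.56 to 0.75), though its probe set is of a type that can match transcripts of more than 1 gene. CrtR-b1, a carotene hydroxylase, fell from 12.40, 12.38 and 12.46 to 12.15, 12.10 and 12.21 (-0.26), and 1 of 3 probe sets of Psy1, phytoene synthase, fell by 0.16. The Psy1 call was lost on leaving out T34 replicate 2 or either of control replicates 1 and 2, in the 6 arrays alone and with the 3' minus 5' measure. SSTLE1 and neryl diphosphate synthase 1 are also markers of glandular trichomes, and the third such marker, MTS1, had 4.24 to 4.74 on the 6 arrays and a change of -0.04. Over the 3 markers the mean log2 signal was 5.47 to 5.63 in control plants and 6.06 to 6.22 with T34. These 3 markers were settled with their values known, and the list as first written had 1 higher member and a median of 0.026, against 0.655. Neryl diphosphate synthase 1 takes its name from the study's table of T34 changes on these arrays. Its place on both lists is therefore not independent evidence. The share of the 3 markers passing was 66.7%, against 9.89% of all probe sets and 15.6% of those with a symbol. In RNA from whole aerial parts, more cells of a type and more RNA per cell cannot be told apart.

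Of 12 phenylpropanoid probe sets 2 were higher and 1 lower (25%, against 9.89% of all and 15.6% of those with a symbol). The list as first written had none higher and 2 lower. THT1-3 and THT7-1, which couple tyramine to hydroxycinnamic acids, rose by 0.65 and 0.26. THT1-3 had 6.38, 6.55 and 6.07 in control plants, an SD of 0.24, against 7.07, 6.99 and 6.88 with T34. DFR, dihydroflavonol reductase of anthocyanin synthesis, fell from 5.83, 5.89 and 5.91 to 5.52, 5.45 and 5.17 (-0.50, adjusted p = 0.00199). The THT7-1 call was lost without control replicate 2 and with the 3' minus 5' measure.

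Of 27 probe sets of redox metabolism 6 were higher, 1 lower and 20 did not pass. The share passing was 25.9%, against 9.89% of all and 15.6% of those with a symbol. The list as first written gave 4 higher and 1 lower, with a median log2 change of 0.014 against 0.049. The peroxidase CEVI-1 had 9.36, 9.36 and 9.26 against 9.75, 9.78 and 9.64 (0.40). The catalase cat1 rose by 0.24 and the glutathione peroxidase GPXle-1 by 0.22, with control arrays at 11.66, 11.69 and 11.72 and T34 arrays at 11.92, 11.89 and 11.91. DHAR1, dehydroascorbate reductase, rose with both of its probe sets (0.26 and 0.13), and it was the 1 gene with a symbol, among 83 with several probe sets, whose probe sets all passed. In 18 others only some did. GPXle-2 (0.16) passed with 1 of 2 probe sets, and MDHAR, monodehydroascorbate reductase, had -0.28 (adjusted p = 0.0821). Without single arrays 4 to 6 members were higher, 3 were with the 3' minus 5' measure in the fit and 1 with spike scaling. Both DHAR1 calls were lost with the 3' minus 5' measure, and the smaller one also in the 6 arrays alone and without control replicates 1 or 2 or T34 replicates 2 or 3. The same fits ended the call of GPXle-2, and MDHAR lost its call without control replicates 1 or 3 or T34 replicates 1 or 2, in the 6 arrays alone and with the 3' minus 5' measure.

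Among 54 probe sets of cell wall growth 10 were higher and 3 lower (24.1%, against 9.89% of all probe sets and 15.6% of those with a symbol). XET4, a xyloglucan endotransglucosylase, which cuts and rejoins wall polymers, had 5.66, 5.63 and 5.41 in control plants and 6.13, 6.15 and 6.21 with T34 (0.60, interval 0.45 to 0.74). Its relative XTH1 rose by 0.23 and XTH5 by 0.16, whereas XTH3 had 7.44, 7.89 and 7.79 against 7.34, 7.28 and 7.28 (-0.41). Of the expansins, which loosen walls, EXP5, EXP12 and exp9 were higher (0.16 to 0.19) and EXPA10 lower (-0.24). Xegip, an inhibitor of a xyloglucan-cutting enzyme, rose by 0.46, the β-galactosidases TBG2 and TBG7 by 0.26 and 0.18, and LOC543515, with the synonym LEXYL2, by 0.23, while the cellulase cel5 fell by 0.40. The number of higher members was 7 to 9 without single arrays, 6 in the 6 arrays alone and 2 with spike scaling. Xegip and cel5 lost their calls with the 3' minus 5' measure, and XTH3 and EXP12 in the 6 arrays alone. Lost with single arrays were exp9 (all but control replicate 2), XTH5 (all but control replicate 1), EXPA10 (control replicate 3, T34 replicates 1 and 2), cel5 (control replicates 2 and 3, T34 replicates 1 and 2) and TBG7 (control replicate 1, T34 replicates 2 and 3).

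Hormone, light and transport genes gave single shifts. Of 26 growth hormone probe sets 2 were higher and 1 lower (11.5%), and of 12 of light perception 1 and 1 (16.7%). Of 24 probe sets of mineral and amino acid transport 2 were higher and none lower (8.33%). Of 11 of abscisic acid and water stress 2 were higher and 1 lower (27.3%). All these shares stand beside 9.89% of all probe sets and 15.6% of those with a symbol. GA20OX1, a gibberellin 20-oxidase, fell from 10.09, 10.07 and 10.05 to 9.75, 9.75 and 9.68 (-0.34, adjusted p = 0.0014), and 20ox-2, a second such enzyme, rose by 0.23. HY5, a transcription factor of the light response, had 7.91, 7.88 and 8.05 against 7.18, 7.46 and 7.51 (-0.56), and the photoreceptor CRY2 rose by 0.24. FRO1, a ferric chelate reductase, had 8.23, 8.35 and 8.50 in control plants and 9.05, 9.05 and 9.07 with T34 (0.70, interval 0.53 to 0.86). PT1, a phosphate transporter, had 7.67, 8.03 and 8.17 against 8.46, 8.49 and 8.69 (0.59). The lipid transfer proteins TSW12 (0.31) and LE16 (0.33) were higher and the aquaporin LePIP1 lower (-0.15). Of the sugar genes, the cell wall invertase Wiv-1 and the sucrose synthase sus3 were higher (0.23 and 0.22), out of 27 probe sets. That share is 7.41%, against 9.89% of all and 15.6% of those with a symbol. With the replicate number as a block 5 of the 27 were higher. The calls of CRY2 (T34 replicates 1 or 2), sus3 (control replicate 2) and LePIP1 (all but T34 replicate 3) were lost without the arrays named, and those of sus3, LE16 and LePIP1 with the 3' minus 5' measure.

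FRO1 and PT1 are best known from roots. They were 2 of the 8 root markers on the array (25%, against 9.89% of all probe sets and 15.6% of those with a symbol). The other 6 did not pass, and 5 of the 8 had a mean signal below the median of the arrays. The mean log2 signal of all 8 was 6.56 to 6.69 on the control arrays and 6.74 to 6.77 on the T34 arrays. That mean includes FRO1 and PT1: of the 8 changes 3 were positive and 5 negative, with a median of -0.02. The part of root material in these shifts was not tested. Of 10 shoot meristem and vascular markers 1 passed (10%, against 9.89% of all probe sets). It was the homeobox gene T6, with 5.93, 5.84 and 6.08 against 5.72, 5.45 and 5.51 (-0.39). The mean of the markers was 5.08 to 5.09 in control plants and 4.96 to 5.02 with T34. That mean includes T6, and 9 of the 10 had a mean signal below the median of the arrays. All 10 changes were negative, with a median of -0.07. Of 18 fruit, flower and seed markers 1 was higher and 2 lower (16.7%, against 9.89% of all and 15.6% with a symbol). Of their changes 6 were positive and 12 negative, with a median of -0.03. The higher one was AG1, a floral MADS-box gene with a low signal. AG1 rose from 4.42, 4.65 and 4.54 to 5.23, 5.20 and 5.38 (0.73). The lower ones were TPP3 and RIN (-0.17). The RIN call stood only without T34 replicate 3 among the fits that left out 1 array.

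Several processes had no member that passed. At the share of all probe sets (9.89%) or of those with a symbol (15.6%), only a few would on any list this short. None of the 9 photosynthesis probe sets did, with changes between -0.04 and 0.03 and signals of the mesophyll markers CAB4, CAB5 and CAB6A averaging 14.14 to 14.17 on every array of both groups, near the top of the range. Nor did any of the 12 probe sets of protein synthesis (-0.07 to 0.08), the 7 of 14-3-3 proteins (-0.03 to 0.03) or the 15 of cell division and chromatin, of which 11 had negative values and CDKA1, a cyclin-dependent kinase, had -0.15 (adjusted p = 0.143). A p that misses the threshold does not show equal levels: the interval of CDKA1 was -0.27 to -0.03. Of 9 heat shock probe sets 1 was higher (11.1%, against 9.89% of all and 15.6% of those with a symbol). It was MTSHP, a mitochondrial small heat shock protein (0.31), a call that was lost with the 3' minus 5' measure.

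**Figure D4:**
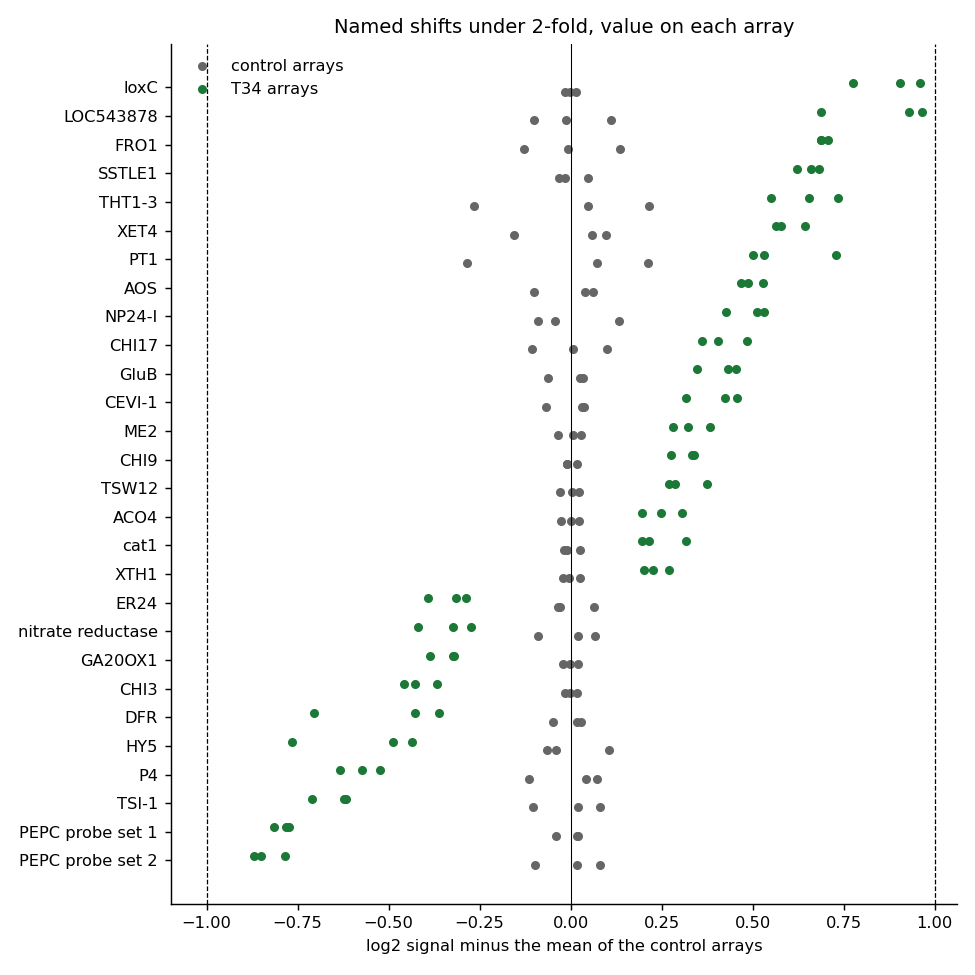
Log2 signal minus the mean of the 3 control arrays (horizontal axis) for 28 of the named probe sets with shifts under 2-fold, with control arrays in grey and T34 arrays in green. Dashed lines mark 2-fold; in each row the 3 green points lie on 1 side of the 3 grey ones.

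Beside the T34 values stand those of amdS6 and amdS122, which were set against the same 3 control arrays, so that their changes are not independent of those of T34. The 3' minus 5' measure was 2.77 to 3.12 on the arrays of the transformants, below the 3.20 to 3.28 of T34 and the 3.30 to 3.44 of control plants, and its part in the values that follow was not tested. For PPCK1 the log2 change was -1.34 with T34 and 1.25 with amdS6, and it was higher still with amdS122. For the hemoglobin it was -1.12, 0.94 and 1.76. PEPC probe set 1 had -0.79, 1.05 and 1.87, and nitrate reductase -0.34, 1.01 and 1.41. Compared directly, PPCK1 was lower with T34 than with amdS6 by a log2 difference of -2.60 and than with amdS122 by -3.44, and the differences of the hemoglobin were -2.06 and -2.88 (limma, adjusted p under 0.1 for 45.7% and 48.9% of all probe sets in these 2 comparisons). T34 stood below control plants for these transcripts, and the transformants above.

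Of the rises, those of the cathepsin D inhibitor were close to equal in size with the 3 strains (1.00, 1.02 and 0.99 with T34, amdS6 and amdS122). Neryl diphosphate synthase 1 rose by 1.29, 1.71 and 1.04 and loxC by 0.88, 1.14 and 0.90. TD2 had 1.33 with T34 and -0.05 and 0.11 with the transformants, and T34 plants exceeded those of amdS6 by 1.39 and those of amdS122 by 1.23 (adjusted p = 2.81e-07 and 6.2e-07). The first unnamed transcript had 1.51, -0.87 and -1.19. GluB (0.41, -2.07 and -0.37), FRO1 (0.70, -0.23 and -0.44) and LOC543878 (0.86, -0.93 and -0.44) likewise had a positive value with T34 and negative values with both transformants. The direct comparisons share the T34 arrays with the comparison against control plants.

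**Figure D5:**
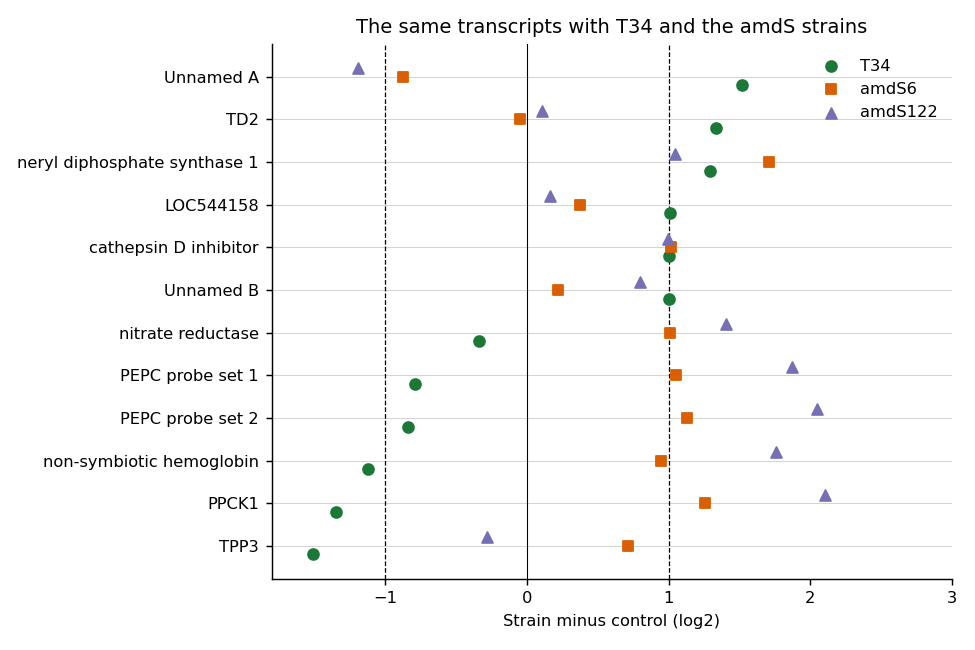
Log2 difference from control plants (horizontal axis) with T34 (circles), amdS6 (squares) and amdS122 (triangles) for the 9 probe sets past both limits with T34, the PEPC probe sets and nitrate reductase. All strains share the same 3 control arrays and dashed lines mark 2-fold; circles and the other symbols lie on opposite sides of 0 for PPCK1, the hemoglobin, PEPC, nitrate reductase and the first unnamed transcript.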

How the data were processed

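Signals were taken on the log2 scale as deposited, after the authors had processed the Affymetrix arrays by RMA (background correction, quantile normalization, summary by probe set) in Expression Console, versions not given. All 12 arrays were fitted with limma 3.58.1 (R 4.3.3) with 1 mean per group, and the contrast T34 minus control was adjusted by Benjamini-Hochberg over 10038 tomato probe sets. A probe set passed at an adjusted p under 0.1, and the 2-fold limit follows the study. The study's multi-class SAM was replaced by this fit, with a moderated F test as an alternative. Intervals are 95% intervals of the fit, log2 changes are means of 3 arrays minus means of 3 arrays, with a precision limited by the 3 arrays per group. Nothing states whether the pools came from separate sowings, so p-values measure the spread between these pools.

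Array annotation gave 909 probe sets 1 symbol (885 matched to RefSeq, used for synonyms only), and a few names come from descriptions in the study's tables. Members and lists were chosen with earlier results of these data known. The 25 lists were first matched by pattern, then corrected by symbol, and some members were added by synonym after values of passing genes had been seen. Named are the probe sets past both limits, the 20 largest rises and 20 largest falls with a symbol, and 4 members per list with the smallest adjusted p (127 probe sets). Not all are described, and the other names were chosen after their values were seen. Lists are described by counts and medians without a test.

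Same-numbered control and T34 arrays deviated together from their group means (correlations across probe sets of 0.35, 0.17 and 0.55). Among pairs with unlike numbers, control replicate 1 with T34 replicate 2 had 0.18 and control replicate 2 with T34 replicate 1 had 0.07. All unlike pairs that held a replicate 3 were negative. This check therefore does not settle whether the replicate number pairs the arrays, and the main fit took no pairing. The 108 control probe sets served quality checks, and 63 reporter probe sets were not used.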

Additional observations from a re-analysis of the deposited data

How the results depend on the processing

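With the replicate number as a block 1120 probe sets passed (629 higher and 491 lower), 934 of them among the 993, and 9 were past both limits (6 higher, 3 lower). Under the block ACS3 and loxD no longer passed, HT1 and CDKA1 did, and no other call of the 148 probe sets checked changed. Of 574 higher and 419 lower probe sets, the 6 arrays alone gave 358 and 212, scaling on hybridisation spikes 107 and 19, array weights 1004 and 869, the 3' minus 5' covariate 315 and 218, an adjusted p under 0.05 gave 376 and 238, and the moderated F over the 4 groups, which also calls differences of the transformants, 3382 and 3192. Leaving out single arrays gave 373 to 526 higher and 206 to 384 lower, and 7 to 10 past both limits. Over all alternatives 7 to 11 probe sets were past both limits. Of 101 checked probe sets that passed, 40 kept their call in every alternative (62 when spike scaling is set aside), 29 lost it without some single array, and none turned direction, which could happen only where an alternative changed the values or the arrays. The causes of these differences were not tested. With array weights the cathepsin D inhibitor (0.95), the second unnamed probe set (0.99) and LOC544158 (0.97) were under 2-fold, and LOC543955 (1.12) was past it, which made 7 past both limits.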

Other observations

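Among probe sets outside the lists, FDH, a formate dehydrogenase, rose from 6.91, 7.04 and 7.15 to 7.71, 7.72 and 7.84 with T34 (0.73, interval 0.57 to 0.88), and ARPI from 7.60, 7.83 and 7.70 to 8.51, 8.49 and 8.39 (0.75). LOC543602, with the synonym Eli3, rose with 1 of 2 probe sets (0.64), and the other had -0.08. GABA-TP1, a γ-aminobutyrate transaminase, rose by 0.25 (adjusted p = 0.00561).

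Among the falls outside the lists were NAC1, a NAC transcription factor (8.34, 8.38 and 8.34 in control plants, 7.89, 8.06 and 7.87 with T34, -0.41), fsm1, a MYB-like factor (-0.35), and HO2, a heme oxygenase (-0.32). LOC544267, with no function given, fell from 11.76, 11.62 and 11.62 to 10.99, 10.97 and 10.95 (-0.70, interval -0.80 to -0.60), and LOC543986 and LOC543899 fell by 0.82 and 0.71. These genes were chosen after their values were seen.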
